A study of Homo sapiens with 3 samples.

Results

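The enzymes of glycolysis, of lactate formation and of the tricarboxylic acid (TCA) cycle were described in primitive neural progenitor cells (pNPCs). The 46 genes were taken from a list of named enzymes, by symbol, and all 46 were found among the 62754 genes of the deposited tables. The samples are 3 replicates of pNPC WT, the 1 group of the study, in which polyadenylated RNA was sequenced. The cells were differentiated from H1, an established human embryonic stem cell line, and no other line, genotype or treatment was analysed here. All 3 replicates were grown in a Neurobasal and DMEM/F12 medium with N2, B27-RA, FGF2, the GSK3 inhibitor CHIR99021, human leukemia inhibitory factor, the TGF-beta receptor inhibitor SB431542 and the ROCK inhibitor Y-27632. Oxygen tension, glucose level, passage number and the spacing of the replicates are not given in the labels. Nothing in the labels says that the replicates were separate cultures, so the spread between them may be technical.

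Glycolysis splits glucose into pyruvate in the cytosol, and lactate dehydrogenase turns pyruvate into lactate and back. Pyruvate that enters mitochondria becomes acetyl-CoA through the pyruvate dehydrogenase complex, which the pyruvate dehydrogenase kinases (PDKs) switch off by phosphorylation, and acetyl-CoA is then oxidised in the TCA cycle. Many steps have several isoenzymes from separate genes, with their own tissue patterns, such as the liver, muscle and platelet forms of phosphofructokinase. Neural progenitors and embryonic stem cells are both known for active glycolysis, and a number of glycolytic genes are classical targets of the hypoxia-inducible factors.

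Markers of several cell types were measured in the same libraries. Of 10 neural progenitor markers 8 were detected, with summed levels of 2555, 2621 and 2305 TPM (transcript level per length, scaled to the same sum in each library) in replicates 1, 2 and 3. VIM made up most of this sum, with 1898.59, 2112.55 and 1724.49 TPM, so the sum says little of the other markers. Of the next highest, FABP7 was highest in replicate 1 (137.65, 77.37 and 92.60 TPM), NES in replicate 2, and CDH2 and MSI1 in replicate 3. All 10 neuron and all 10 mesenchyme markers were detected too. Neuron markers summed to 1163, 731 and 660 TPM, highest in replicate 1, and mesenchyme markers to 670, 1400 and 981 TPM, lowest in replicate 1. Single markers did not all follow these sums. Of the 5 highest neuron markers, TUBB3, NEFM and NEFL were highest in replicate 1, GAP43 in replicate 2 and MAP2 in replicate 3. Of the 5 highest mesenchyme markers, COL1A2, PRRX1, TWIST1 and LUM were lowest in replicate 1 and COL3A1 in replicate 3. No marker of leukocytes (0 of 6), liver (0 of 6) or red blood cells (0 of 7) was detected, and TYROBP, HNF4A, HBA1, HBB and HBG1 were at 0 counts. All 8 proliferation markers were detected, at summed levels of 1533, 1702 and 1663 TPM. In bulk RNA, fewer cells of a type and less RNA per cell cannot be told apart. Libraries held 34658454, 38400092 and 30038114 expected counts.

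Promoters of 5 of the enzymes are printed because the results below turn on their genes: the LDHB and LDHA pair, PGK1 and ENO2, and PDK1 among the PDKs. By coefficient of variation of TPM, PGK1 and ENO2 had the widest spread of the detected glycolytic genes, the PFKFB genes aside. Each window runs from 250 bases before to 50 bases after a RefSeq start in GRCh38.p14 and is written 5′ to 3′ on the gene's strand. Capitals mark the hypoxia response core ACGTG on either strand (CACGT on the strand shown).
LDHB, chr12:21657793-21658092, minus strand: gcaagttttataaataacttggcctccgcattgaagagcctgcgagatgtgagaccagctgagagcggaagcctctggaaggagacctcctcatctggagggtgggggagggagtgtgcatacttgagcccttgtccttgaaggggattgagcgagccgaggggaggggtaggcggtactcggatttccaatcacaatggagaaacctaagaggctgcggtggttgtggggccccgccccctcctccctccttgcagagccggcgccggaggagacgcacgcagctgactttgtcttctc
LDHA, chr11:18394313-18394612, plus strand: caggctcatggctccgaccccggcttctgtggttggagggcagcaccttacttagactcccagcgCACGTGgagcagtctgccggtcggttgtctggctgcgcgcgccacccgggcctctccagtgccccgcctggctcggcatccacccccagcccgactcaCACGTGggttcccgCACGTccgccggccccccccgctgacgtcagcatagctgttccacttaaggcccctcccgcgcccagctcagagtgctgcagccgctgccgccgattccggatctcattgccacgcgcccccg
PGK1, chrX:78103998-78104297, plus strand: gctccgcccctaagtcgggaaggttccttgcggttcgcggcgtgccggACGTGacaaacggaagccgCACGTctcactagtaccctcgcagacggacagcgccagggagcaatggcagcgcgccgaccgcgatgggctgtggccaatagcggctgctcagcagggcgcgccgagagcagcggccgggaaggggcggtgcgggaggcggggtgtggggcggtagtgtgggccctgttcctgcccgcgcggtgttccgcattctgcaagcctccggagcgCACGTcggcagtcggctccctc
ENO2, chr12:6914330-6914629, plus strand: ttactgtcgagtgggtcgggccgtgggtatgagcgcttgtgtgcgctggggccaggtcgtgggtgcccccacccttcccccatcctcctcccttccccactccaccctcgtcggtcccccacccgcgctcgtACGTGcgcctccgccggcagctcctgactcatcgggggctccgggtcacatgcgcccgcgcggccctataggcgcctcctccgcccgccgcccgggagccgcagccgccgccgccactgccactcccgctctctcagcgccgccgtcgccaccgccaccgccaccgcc
PDK1, chr2:172555840-172556139, plus strand: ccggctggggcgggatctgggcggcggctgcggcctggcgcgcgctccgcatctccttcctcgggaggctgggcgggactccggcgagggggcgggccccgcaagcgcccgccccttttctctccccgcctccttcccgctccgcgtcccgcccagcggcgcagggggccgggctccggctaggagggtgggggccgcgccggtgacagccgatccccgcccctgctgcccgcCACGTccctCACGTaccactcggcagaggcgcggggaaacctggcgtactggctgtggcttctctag
The core occurred 5 times in the LDHA window, 3 times in that of PGK1, 2 times in that of PDK1 and 1 time in that of ENO2, and these letters were not in the LDHB window. An E-box, CACGTG, holds the core on both strands and so counts as 2 matches, and LDHA had 2 of them. Both LDHA and PDK1 have a further RefSeq start whose window holds no core. Over all enzymes with a window, ACGTG was found in 24 of 75 windows (32.0%), against 7518 of 35116 windows of all genes (21.4%), and CACGTG in 9 of 75 (12.0%) against 2548 of 35116 (7.26%). The 75 windows belong to 44 of the 46 genes, 20 of which had at least 1 core, and several windows of 1 gene overlap. A match is a description of the letters only.

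Of the 46 enzymes, 41 were detected, meaning at least 1 TPM in every library. The 5 others were HK3, a hexokinase of blood cells, PGAM2, the muscle phosphoglycerate mutase, PKLR, the liver and red cell pyruvate kinase, PFKFB1, the liver form of the bifunctional fructose-2,6-bisphosphate enzyme, and PDK4, the PDK known for its induction by fasting. HK3 had 0, 0 and 3 expected counts in replicates 1, 2 and 3, where 3 counts would have given 0.127 and 0.129 TPM in the libraries at 0. PGAM2 had 0, 0.24 and 0.55 TPM and PKLR 0.07, 0 and 0.06 TPM. PFKFB1 stood at 0.30, 0.48 and 0.34 TPM, on 10, 17 and 11 counts, and PDK4 at 0.06, 0.10 and 0.05 TPM, on 5, 5 and 3 counts. For PFKFB1, 3 counts would have given 0.0885, 0.0849 and 0.0925 TPM, so it was measured above that limit in every library and fell short only of 1 TPM. The 4 others rest on few counts, and absence of their RNA was not shown. Together the 46 genes summed to 15337, 13817 and 13482 TPM and took 1.53%, 1.25% and 1.20% of the counts.

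**Figure D1:**
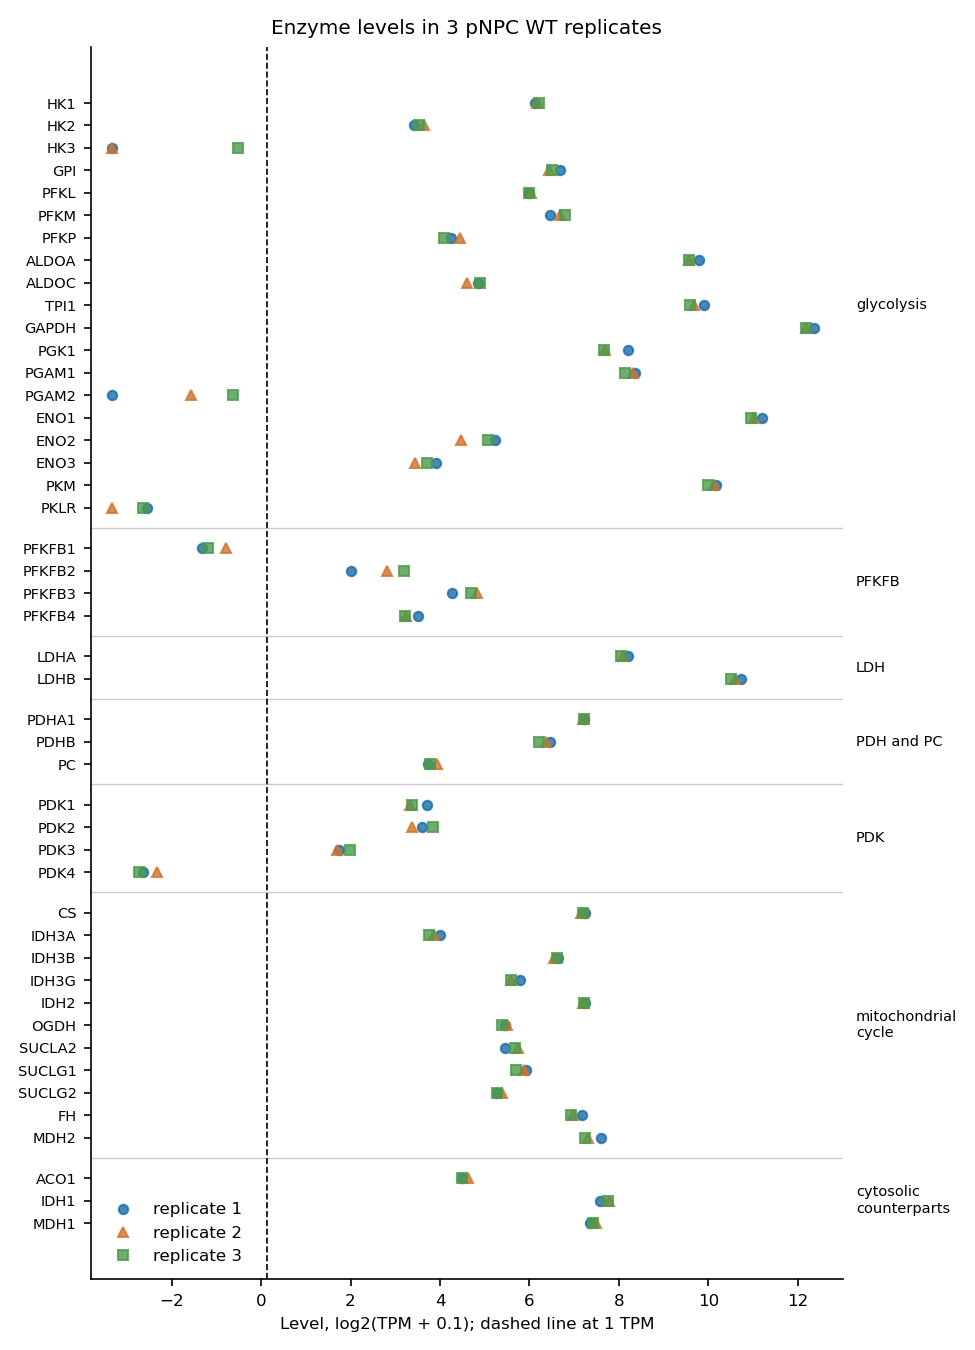
Level of each of the 46 enzymes as log2(TPM + 0.1) on the horizontal axis, with 1 point for each of the 3 pNPC WT replicates, grouped by role. The dashed line marks 1 TPM. GAPDH, at a mean of 4863 TPM, is farthest right, and HK3, PGAM2, PKLR, PFKFB1 and PDK4 lie left of the line.

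Hexokinase transcripts, those of the enzymes that trap glucose in the cell, were mainly of HK1, the form most tissues share. HK2, the isoform of insulin-responsive and many growing tissues, had 10.58, 12.44 and 11.37 TPM, and HK1 (ENSG00000156515.25, chromosome 10, 69270000 to 69401882, GRCh38.p14) had 69.72, 71.85 and 74.59 TPM in replicates 1, 2 and 3. The isoforms did not overlap, and HK2 was 6.25-fold lower than HK1, a log2 ratio of -2.64 ± 0.11 (SD, n = 3). HK1 held 86.1% ± 0.80 of the summed hexokinase level. Counted per read without length scaling, the log2 ratio was -1.98, and HK2's share was 20.2% rather than 13.7% ± 0.93. Its deposited mean transcript length in replicate 1 was 5495 bases, against 3577 bases for HK1. GPI, which turns glucose 6-phosphate into fructose 6-phosphate, averaged 93.1 ± 8.15 TPM and exceeded PFKL in every library (log2 ratio 0.53 ± 0.14).

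The phosphofructokinase step, the committed step of glycolysis, was shared between 2 isoforms. PFKM, the muscle form, had 88.34, 102.80 and 111.57 TPM, PFKL, the liver form, 63.68, 65.50 and 63.46 TPM, and PFKP, the platelet form, 18.81, 21.59 and 17.03 TPM. The 3 genes kept this order in each library, with mean shares of 54.6% ± 3.22, 34.9% ± 2.15 and 10.4% ± 1.35. PFKP was 3.36-fold lower than PFKL and 5.25-fold lower than PFKM. The level of PFKM was lowest in replicate 1 by TPM but highest there by CPM, counts scaled to library size and not to length (161, 151 and 149). Its deposited mean transcript length was 2707, 2416 and 2232 bases. HK1 changed order between the scales likewise (CPM of 172, 161 and 167) at lengths of 3577, 3571 and 3584 bases, so the order of PFKM over replicates depends on the scale used. Markers of skeletal muscle, where PFKM is best known, were detected for 3 of 8 genes and summed to 7.81, 13.1 and 9.74 TPM. PFKM also overlaps SENP1 on the other strand, at 14.83, 22.51 and 22.35 TPM.

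Fructose 2,6-bisphosphate, the strongest activator of phosphofructokinase, is made and broken down by the PFKFB enzymes. Their transcripts were low, and one of them varied most of all. PFKFB3, the form with the highest kinase over phosphatase activity, had 19.06, 28.36 and 25.77 TPM, and PFKFB4 had 11.24, 9.29 and 9.18 TPM. PFKFB3 was above PFKFB4 in every library, 2.43-fold on average, but the ratio ran from 1.70-fold in replicate 1 to 3.05-fold in replicate 2. PFKFB2, the heart form, had 3.94, 6.98 and 9.02 TPM, a coefficient of variation of 38.5%, the highest of the 41 detected enzymes. Mean shares of the family were 58.7% ± 3.88 for PFKFB3, 24.6% ± 6.86 for PFKFB4, 15.7% ± 4.48 for PFKFB2 and 0.90% ± 0.15 for PFKFB1. In replicate 1 PFKFB4 was at its highest, while PFKFB2 and PFKFB3 were at their lowest.

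By TPM, the steps from aldolase on were more abundant than the entry steps. GAPDH (ENSG00000111640.15, chromosome 12, 6534517 to 6538371), the dehydrogenase of glyceraldehyde 3-phosphate, had 5259.69, 4655.18 and 4674.47 TPM. Enolase followed at a summed 2169 ± 199 TPM, pyruvate kinase at 1096 ± 66.9, TPI1, triose phosphate isomerase, at 849 ± 91.0, and aldolase at 826 ± 78.6 TPM. PGK1, phosphoglycerate kinase, at 235 ± 53.3 TPM and phosphoglycerate mutase at 309 ± 23.8 TPM were the lower steps after GAPDH. Against these, hexokinase summed to 83.7 ± 3.17 TPM, GPI to 93.1 ± 8.15 and phosphofructokinase to 184 ± 11.7 TPM. On the TPM scale these 3 entry steps lay below each later step to lactate in every library. By CPM in replicate 3, PFKM, PFKL and PFKP were at 149, 107 and 25.9, and PGK1 was at 280. The separation of phosphofructokinase from PGK1 thus depends on length scaling. Levels of transcripts say nothing of the flux through a step. Processed copies of these genes took little: 65 named copies of GAPDH summed to at most 0.0798% of its level, and the copies of TPI1, the highest share found, to 0.510%.

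**Figure D2:**
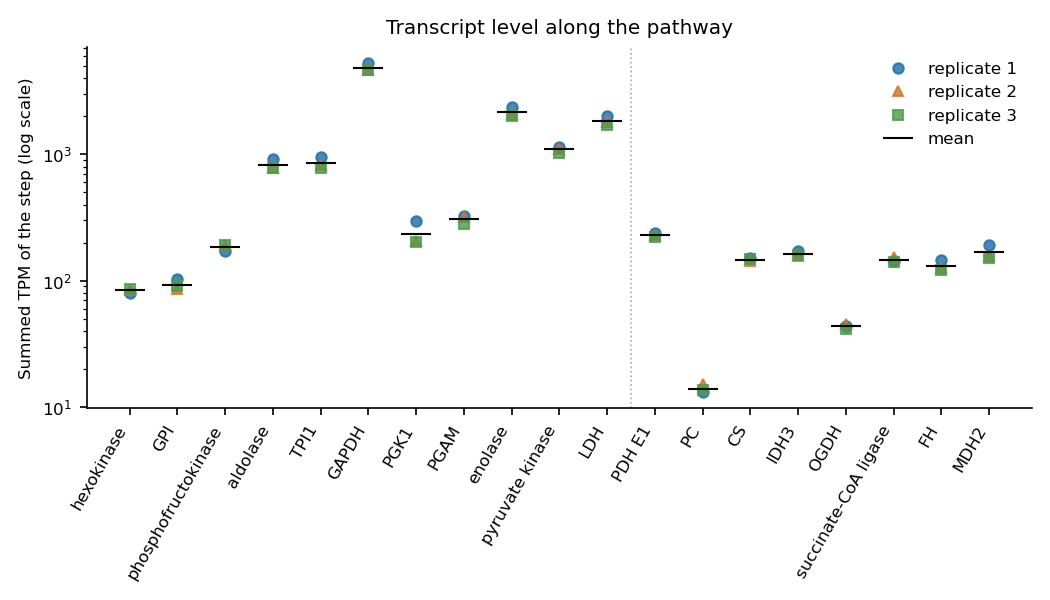
Summed TPM of the genes of each step on a log axis, in pathway order, with 1 point for each replicate and a bar at the mean. The dotted line separates the cytosolic steps to lactate from pyruvate dehydrogenase, pyruvate carboxylase and the TCA cycle. Steps run from 13.9 TPM for PC to 4863 TPM for GAPDH.

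In 4 of these families 1 isoform took nearly everything. ALDOC, the aldolase of brain, had 28.77, 24.22 and 29.48 TPM, against 888.11, 753.38 and 754.81 TPM of ALDOA, the form of muscle and most other cells. The log2 ratio of ALDOC over ALDOA was -4.86 ± 0.16, and ALDOC held 3.34% ± 0.37 of the sum. ENO2, the neuron-specific enolase, had 37.17, 22.05 and 33.64 TPM, and ENO1, the general form, 2342.47, 2060.59 and 1972.97 TPM. The log2 ratio of ENO2 over ENO1 was -6.13 ± 0.36, and ENO1 held 98.0% ± 0.39 of the enolase level. ENO3, the muscle enolase, stood at 14.92, 10.84 and 13.01 TPM, but it overlaps PFN1, which lies on the other strand at a far higher level (1601.69, 1414.74 and 1396.27 TPM). The strand setting of the counting is not known here, so ENO3's own level is uncertain. PGAM1 took 99.9% ± 0.098 of the mutase level, and PKM, with 1153.67, 1112.37 and 1022.86 TPM, nearly all of the pyruvate kinase level (PKLR 0.0040% ± 0.0034). The gene tables do not separate the PKM1 and PKM2 splice forms of PKM.

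**Figure D3:**
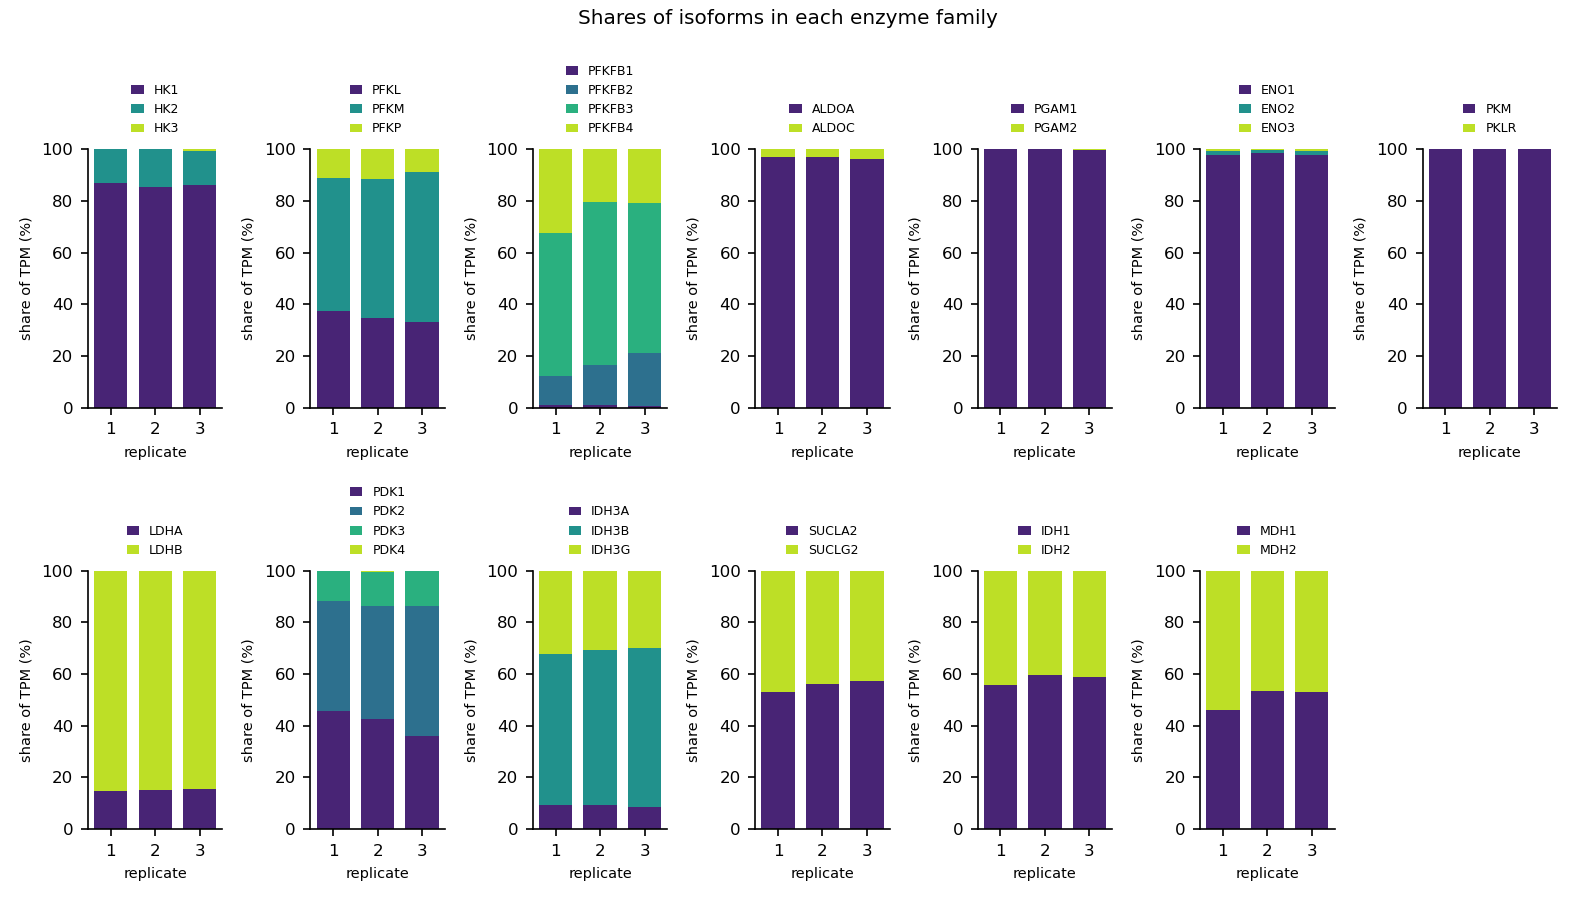
Share of the summed TPM of each enzyme family taken by each isoform, in percent, as stacked bars for replicates 1, 2 and 3. LDHB takes 85.0% of the lactate dehydrogenase level and HK1 86.1% of the hexokinase level on average, while PDK and PFKFB shares vary most between replicates.

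Lactate dehydrogenase was mostly of the B form. LDHB (ENSG00000111716.14, chromosome 12, 21635342 to 21657842), the heart-type subunit, had 1705.61, 1535.85 and 1455.68 TPM on 46453, 40909 and 30187 expected counts. LDHA (ENSG00000134333.15, chromosome 11, 18394563 to 18408425), the muscle-type subunit, had 293.38, 270.55 and 264.88 TPM on 11854, 12799 and 9723 counts. LDHB lay above LDHA in all 3 libraries, 5.66-fold on average, with a log2 ratio of 2.50 ± 0.041. By TPM this was the tightest of the 16 ratios computed. By CPM, LDHB fell from 1340 in replicate 1 to 1065 and 1005 in replicates 2 and 3, while LDHA moved less (342, 333 and 324). The deposited mean transcript length of LDHA was 1808, 2073 and 2073 bases, so the small spread of the ratio depends on the scale. Without length scaling the log2 ratio was 1.76, and the share of LDHB was 77.2% rather than 85.0% ± 0.36. Named pseudogene copies of LDHA summed to at most 0.403% of it.

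At the gate to the mitochondria, the subunits of the pyruvate dehydrogenase E1 enzyme were well detected. PDHB, the beta subunit, had 87.81, 82.59 and 73.57 TPM, and PDHA1, the X-linked alpha subunit, 149.02, 147.65 and 148.81 TPM. PDHA1 had the lowest coefficient of variation of the detected enzymes, 0.50%, though by CPM it was at 127, 104 and 103. PDHB was 1.83-fold lower than PDHA1. PC, pyruvate carboxylase, which refills the cycle with oxaloacetate, had 13.11, 15.10 and 13.61 TPM and was 10.6-fold lower than PDHA1, a log2 ratio of -3.41 ± 0.11 that became -1.72 without length scaling. It overlaps LRFN4 on the other strand, at 20.20, 18.00 and 21.25 TPM.

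The PDKs, which brake this step, were low. PDK1, a hypoxia-induced form, had 12.97, 10.02 and 10.25 TPM, PDK2, a form found in most tissues, 12.00, 10.20 and 14.32 TPM, and PDK3 3.27, 3.13 and 3.87 TPM. PDK1 and PDK2 overlapped in range, and their log2 ratio of 0.11, -0.03 and -0.48 in replicates 1, 2 and 3 averaged -0.13 ± 0.31. A sign-flip test over the 3 libraries, exact and two-sided, gave p = 0.75, adjusted 0.80 by Benjamini-Hochberg over 16 ratios. PDK1 exceeded PDK3 in every library, 3.16-fold on average, a log2 ratio of 1.66 ± 0.29 that became 0.52 without length scaling. The order among PDKs depends on length: without length scaling PDK1 lay above PDK2 (log2 ratio 1.00), and the share of PDK3 was 32.0% rather than 12.8% ± 1.11. PDK3's deposited mean transcript length was 8137, 12093 and 11404 bases in replicates 1, 2 and 3. PDK2 overlaps SAMD14 on the other strand, at 12.43, 18.45 and 15.27 TPM. The 4 PDK genes summed to 28.30, 23.45 and 28.49 TPM, against 236.83, 230.24 and 222.38 TPM for the 2 E1 subunits.

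With the subunits of a step summed, most listed steps of the TCA cycle lay between 131 and 167 TPM on average. Single genes of the mitochondrial cycle ranged more widely, from 14.6 TPM for IDH3A to 167 TPM for MDH2. CS, citrate synthase, averaged 147 ± 4.75 TPM, the summed IDH3 subunits of the NAD-dependent isocitrate dehydrogenase 162 ± 7.41, the succinate-CoA ligase subunits 146 ± 6.77, FH, fumarase, 131 ± 12.0 and MDH2, mitochondrial malate dehydrogenase, 167 ± 22.4 TPM. OGDH, the first subunit of the 2-oxoglutarate dehydrogenase complex, was lower, with 43.83, 45.40 and 41.63 TPM. Within IDH3, IDH3A, the catalytic subunit, had 15.82, 14.49 and 13.40 TPM, against 99.68, 93.54 and 98.57 TPM of the regulatory subunit IDH3B. IDH3A was thus 6.65-fold lower than IDH3B, a log2 ratio of -2.73 ± 0.12, and held 8.99% ± 0.53 of the 3 subunits. Without length scaling the log2 ratio was -1.88 and the share 15.2%. IDH3G held 31.0% ± 1.11 and overlaps SSR4 on the other strand, which stood at 225.53, 234.70 and 207.54 TPM. SUCLA2, the ATP-forming succinate-CoA ligase subunit, had 43.48, 53.64 and 51.19 TPM, and SUCLG2, the GTP-forming one, 38.67, 41.81 and 38.30 TPM. Their log2 ratio of 0.32 ± 0.13 became -0.21 without length scaling, so the order of the pair depends on the scaling. SUCLG1, the alpha subunit that both ligases share, had 60.44, 58.29 and 52.02 TPM.

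For 2 reactions the list holds a mitochondrial and a cytosolic enzyme. IDH2, the mitochondrial NADP-dependent isocitrate dehydrogenase, had 150.14, 147.44 and 149.42 TPM, and IDH1, its cytosolic counterpart, 189.85, 218.10 and 215.32 TPM. IDH2 was 1.39-fold lower, in 3 of 3 libraries. MDH2 had 193.07, 157.58 and 151.60 TPM, and MDH1, the cytosolic malate dehydrogenase, 164.36, 179.67 and 172.00 TPM. MDH2 was above MDH1 in replicate 1 and below it in replicates 2 and 3, a log2 ratio of -0.05 ± 0.24 (exact two-sided p = 1.00 by sign flips, n = 3), and without length scaling it was 0.68. ACO1, the cytosolic aconitase that also serves as an iron sensor, averaged 23.1 ± 1.20 TPM.

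**Figure D4:**
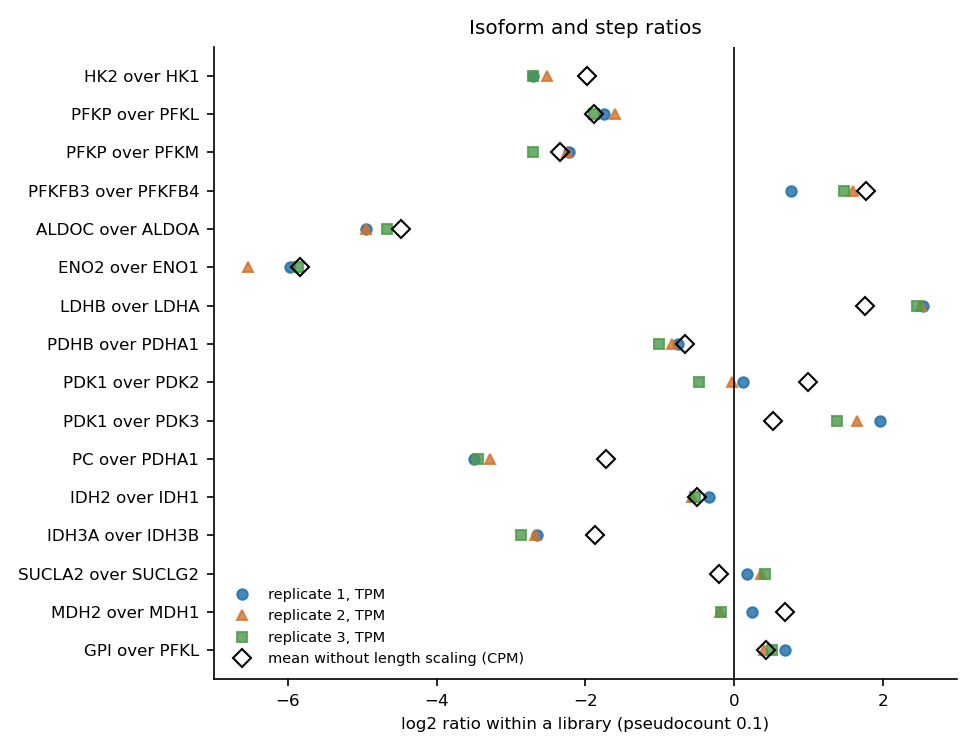
Log2 ratios of 16 gene pairs within a library on the horizontal axis, with filled points for replicates 1, 2 and 3 by TPM and open diamonds for the mean without length scaling. By TPM, LDHB over LDHA sits at 2.50 with little spread, and MDH2 over MDH1 and PDK1 over PDK2 straddle 0. The diamond of SUCLA2 over SUCLG2 lies on the other side of 0.

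Of the 16 ratios, 14 had the same sign in all 3 libraries. For each of these 14, exact sign flips gave a two-sided p of 0.25 and an adjusted value of 0.286, and 0.25 is the floor of such a test on 3 libraries. No ratio could therefore pass a threshold of 0.05, and the values stand as levels with their spread. By role, the median log2(TPM + 0.1) was 9.36 ± 0.10 for lactate dehydrogenase, 7.43 ± 0.06 for the cytosolic counterparts, 6.34 ± 0.13 for pyruvate dehydrogenase and PC, and 6.17 ± 0.05 for glycolysis. It was 5.83 ± 0.11 for the mitochondrial cycle, 3.00 ± 0.22 for PFKFB and 2.62 ± 0.09 for the PDKs. All 46 enzymes had a median of 5.78 ± 0.08, against 3.60 ± 0.17 for the 17046 genes tested for spread.

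Spread between replicates was then tested in edgeR as the deviance of each gene's counts from a single level, against the dispersion of genes of its abundance. Of 42 enzymes with enough counts to be tested, 0 were called at an adjusted p of 0.05, where 271 of 17046 genes (1.59%) were called. At an unadjusted p under 0.05 the count of enzymes was also 0, where 1253 of the 17046 genes passed. With DESeq2 size factors and dispersion trend 0 enzymes were called. Those left out of the test for low counts were HK3, PGAM2, PKLR and PDK4. The lowest p in edgeR was that of ENO2 (0.0767, adjusted 0.838), followed by PFKFB2 (0.0929, adjusted 0.925), ALDOA (0.200) and PGK1 (0.220). The common biological coefficient of variation was 22.6%. The median SD of log2 CPM was 0.20 for the enzymes and 0.22 for all genes tested. Among genes at 100 TPM or more, the median coefficient of variation was 7.80% for 17 enzymes and 8.45% for 1500 genes.

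Most of the enzymes were highest in replicate 1, by a small margin. By CPM after TMM scaling, 34 of 42 enzymes (81.0%) were highest in replicate 1, against 40.8% of all genes tested. The median enzyme deviated from its mean by 0.16 in replicate 1, -0.02 in replicate 2 and -0.11 in replicate 3 on the log2 scale, where the medians of all genes were -0.0035, 0.0017 and 0.0042. By TPM, 24 of the 41 detected enzymes (58.5%) were highest in replicate 1, against 25.5% of all detected genes, and at 100 TPM or more 14 of 17 enzymes (82.4%) against 44.9% of 1500 genes. ENO2 (0.42), ALDOA (0.38), PGK1 (0.36) and PFKFB4 (0.35) deviated most upward in replicate 1, and PFKFB2 (-0.53) and PDK3 (-0.33) most downward. PGK1 (ENSG00000102144.15, chromosome X, 78104248 to 78129295) had 296.62, 207.37 and 201.58 TPM on 14634, 11745 and 8407 counts, so its replicate 1 was set apart from a close pair. Summed neuron markers were highest in replicate 1 (1163, 731 and 660 TPM) and summed mesenchyme markers lowest (670, 1400 and 981 TPM), though not every marker followed its sum. Their part in these deviations was not tested. A trend of counts on transcript length ran with replicate 1 as well. With this trend removed in each library, a step chosen after seeing the data, 23 of 42 enzymes (54.8%) were highest in replicate 1, against 40.6% of all genes, and the median deviation there was 0.06. PGK1 (0.31) and ENO2 (0.33) stayed above 0 in replicate 1 under that step, ALDOA moved to 0.14, and PDK3 turned to 0.72.

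**Figure D5:**
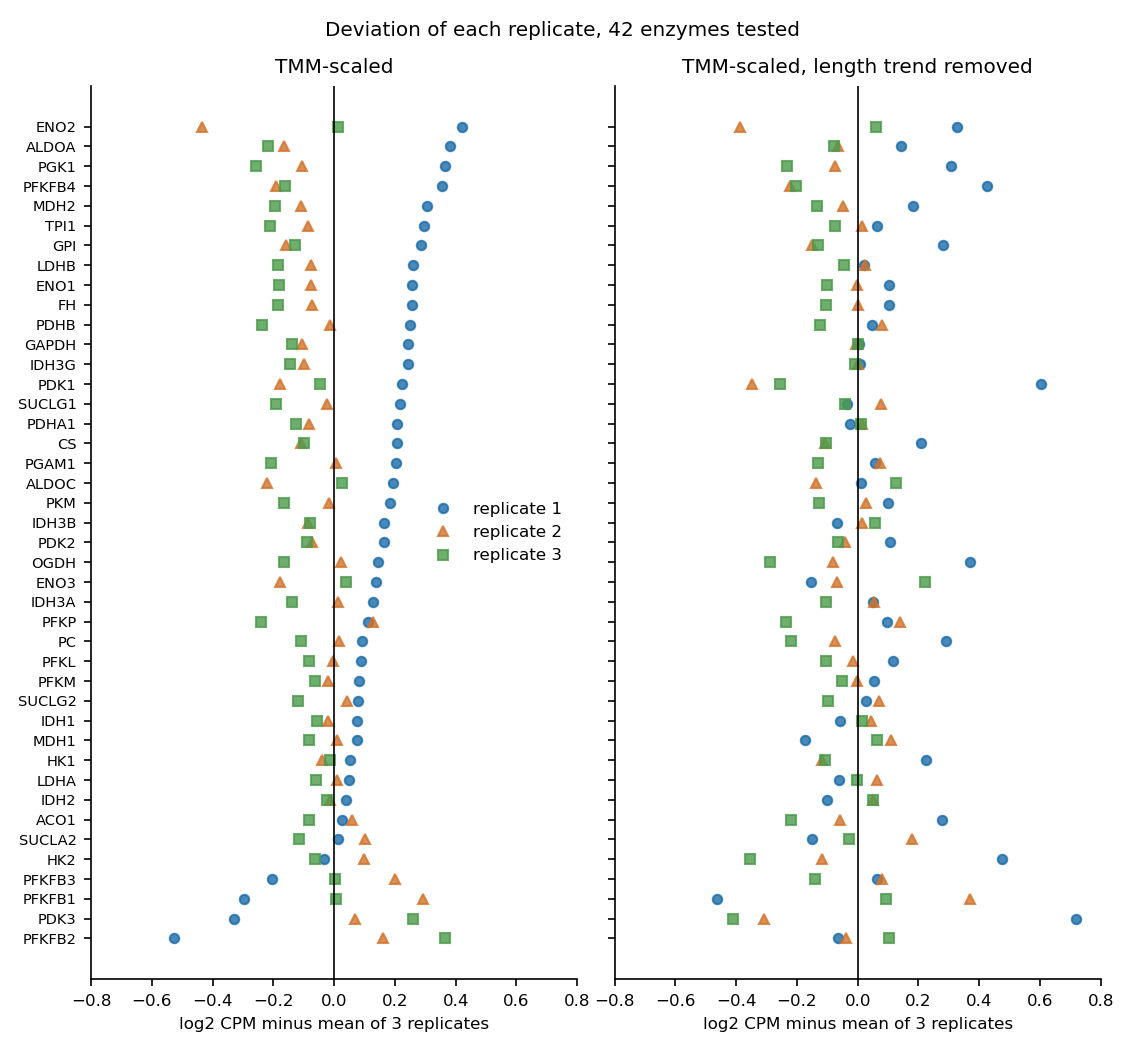
Log2 CPM of the 42 tested enzymes minus the mean of the 3 replicates, after TMM scaling (left) and with the trend on transcript length also removed (right), sorted by the left value of replicate 1. On the left replicate 1 is highest for 34 of 42 enzymes, and on the right for 23 of 42.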

How the data were processed

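Polyadenylated RNA of 3 pNPC WT replicates formed 1 group by their titles. The submitters' processing notes list RSEM 1.3.1, STAR 2.7.11a, Trim Galore 0.6.10 and GRCh38, without their roles. For the annotation release and the strand setting, no value is given in the sources used here. RSEM tables were deposited, 1 per sample, per the file headers. In them the deposited expected count estimates the reads of a gene, not normalized. The deposited TPM divides by effective length and has 1 sum in every library, and the deposited FPKM, scaled for length and library reads, was used only as an alternative.

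Reads that match more than 1 gene are split by RSEM, and 29 of the 46 enzymes overlap an exon of another gene in GENCODE 29, so such levels carry extra uncertainty. Coordinates and promoter windows are from RefSeq GRCh38.p14, 1-based.

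Ratios, shares and medians were computed within a library, with a pseudocount of 0.1 TPM for log2 values, and ratios were tested by exact sign flips with Benjamini-Hochberg adjustment over 16 ratios. A level at 0 is given with the TPM of 3 counts, which covers counting error only. Excess spread was tested in edgeR 4.0.16 (R 4.3.3) with expected counts rounded, TMM, filterByExpr, an intercept-only negative binomial fit and the deviance, at trended dispersion, against chi-square (2 degrees of freedom), adjusted over all genes tested. DESeq2 1.42.0 served as an alternative, beside other scalings, filters and dispersions, removal of a length trend, other pseudocounts, CPM without length scaling, pseudogene copies added, and each replicate left out. Python 3.11.15 with numpy 2.4.6, pandas 2.3.3, scipy 1.17.1 and matplotlib 3.10.9 was used otherwise.

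The enzymes and the other lists were chosen with earlier results of these data known. Any of the 46 enzymes may be named, and of the other lists only genes called for spread, the 5 highest by mean TPM and those at 0 counts in all libraries. A few genes that this covers are not reported here.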

Additional observations from a re-analysis of the deposited data

How the results depend on the processing

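With other TPM minimums (0.5 and 5), CPM, or any 1 replicate left out, the count of detected enzymes stayed between 39 and 41, and 0 enzymes were called for excess spread under all 10 alternative settings. ENO2 had an unadjusted p under 0.05 in edgeR with upper quartile scaling (0.0495), with the length trend removed (0.0400) and without replicate 3 (0.0440), with adjusted values of 0.628 to 0.790. Calls over all genes, 271 as reported, ran from 246 to 332 under the other settings and were 117, 95 and 103 without replicates 1, 2 and 3, where 1 degree of freedom is left. Of the 16 ratios, 3 turned in CPM without length scaling, which counts a longer transcript higher: PDK1 over PDK2 (1.00), SUCLA2 over SUCLG2 (-0.21) and MDH2 over MDH1 (0.68). With each replicate left out, PDK1 over PDK2 ran from -0.25 to 0.043 and turned without replicate 3, and MDH2 over MDH1 ran from -0.19 to 0.025 and turned without replicate 2 or 3. The 13 other ratios kept their sign under every alternative run. CPM moved 19 of 34 family shares beyond their SD. TPM of processed pseudogenes, FPKM and other pseudocounts turned no ratio. No paired analysis was possible because the labels give 1 group. The 3 libraries limit any exact test of a ratio to p = 0.25, and depth limits HK3, PGAM2, PKLR and PDK4, while PFKFB1, on 10 to 17 counts, is undetected only by the minimum of 1 TPM.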

Other observations

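Other enzymes and carriers of the same pathways were detected for 28 of 44 genes listed, and 0 of the 30 tested were called for excess spread in edgeR (1.59% of all genes were called). The 5 highest were SDHC, a membrane subunit of succinate dehydrogenase, at 187.8 ± 6.17 TPM, ACLY, which makes cytosolic acetyl-CoA from citrate, at 158 ± 17.6, SDHB, the iron-sulfur subunit of succinate dehydrogenase, at 73.5 ± 3.83, DLST, the second subunit of the 2-oxoglutarate dehydrogenase complex, at 69.0 ± 3.50, and the glucose 6-phosphatase gene G6PC3 at 66.1 ± 9.28 TPM (SD, n = 3). The testis forms PGK2 and PDHA2 and the gluconeogenic genes PCK1 and G6PC1 had 0 counts throughout. In replicate 3, where the limit is highest, 3 counts would have been 0.108 TPM for PGK2, 0.133 for PDHA2, 0.0834 for PCK1 and 0.102 for G6PC1.

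Of 22 hypoxia-response genes outside the enzyme list, 18 were detected, with summed levels of 766, 683 and 685 TPM in replicates 1, 2 and 3. SLC2A1, the glucose transporter GLUT1, was the only 1 of 19 tested that was called for excess spread (edgeR, adjusted p = 0.0470). Over all genes tested, 1.59% were called. SLC2A1 had 196.11, 107.94 and 110.43 TPM. Like PGK1, it was highest in replicate 1. The call was lost with no filter on low counts (adjusted 0.0570), with a common dispersion (0.203) and without replicate 1, 2 or 3 (1.00, 0.412 and 0.293). SLC16A1, the lactate and pyruvate transporter MCT1, stood at 103.02, 105.83 and 103.23 TPM. HIF1A, the oxygen-regulated transcription factor gene, had 65.12, 91.63 and 84.69 TPM, lowest in replicate 1. SLC2A3, the transporter GLUT3, averaged 55.2 ± 3.36 TPM and the mitophagy receptor gene BNIP3L 47.5 ± 7.11 TPM. By TPM, only SLC2A1 of these 5 highest genes was highest in replicate 1. By CPM, SLC16A1 (263, 239 and 237), SLC2A3 (137, 122 and 115) and BNIP3L (97.5, 83.3 and 90.4) were highest there too. HIF1A was lowest in replicate 1 on this scale as well (170, 220 and 202). The order over replicates thus depends on the scale, and a rise shared by the list was not tested. In the same edgeR test, 3 of 10 neuron markers tested were called (NEFM, STMN2 and ELAVL4) and 2 of 9 neural progenitor markers (SOX3 and HES5). Each of these was highest in replicate 1. Of 10 mesenchyme markers tested 1 was called, COL1A1, which was lowest in replicate 1 (4.62, 18.26 and 12.90 TPM). In edgeR the calls of NEFM (adjusted p of 0.0520 to 0.566) and SOX3 (0.115 to 1.00) were lost with a common dispersion and without any 1 replicate. Without replicate 1 or 2 those of STMN2 (0.625 and 0.620) and ELAVL4 (0.152 and 1.00) were lost, without replicate 2 that of HES5 (1.00), and with a common dispersion or without replicate 2 that of COL1A1 (0.0666 and 1.00). The part of these markers in the SLC2A1 difference was not tested.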
